A study of Mus musculus with 15 samples.

Results

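The 9 genes described here encode the proteins by which a macrophage reads extracellular ATP and adenosine and degrades the second messenger cAMP. They are the cAMP phosphodiesterases *Pde4a*, *Pde4b* and *Pde4d*, the adenosine receptors *Adora2a* and *Adora2b*, the ATP-gated channels *P2rx4* and *P2rx7*, and the ectoenzymes *Entpd1* (CD39) and *Cd38*. They were taken by name from a list of the pathway, 9 of the 51763 genes in the count table, and all 9 were among the 16919 genes with enough counts to be tested. The list was drawn up with results of these data in view, and *Pde4a* was selected on its normalized counts, which had been seen to be highest in dsHMGB1. The values of *Pde4a* are therefore a description with no test. The other 8 genes were tested in a fit over all 16919 genes.

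RNA was sequenced from bone marrow-derived macrophages (BMDMs) of wild-type female C57BL/6NTac mice, 8 to 10 weeks old, grown with M-CSF and stimulated for 24 h. Each of 5 conditions had 3 libraries. PBS served as the control. The alarmin HMGB1 was given at 5 µg/mL, either with all its cysteines reduced (frHMGB1) or with a disulfide bond (dsHMGB1). Bacterial LPS was given at 1 µg/mL, and the LPS/IFNγ cultures also received IFNγ at 20 ng/mL. Cells of 5 mice were pooled before seeding, so the replicates were technical, and no SD or adjusted p here includes variation from mouse to mouse. The LPS in LPS/IFNγ is given as 100 ng/mL in the protocol and as 1 µg/mL in the treatment field, so an LPS dose and IFNγ cannot be told apart in LPS/IFNγ against LPS. Both HMGB1 proteins were recombinant and carried a calmodulin-binding tag. frHMGB1 was prepared in buffers with the reducing agent DTT and dsHMGB1 without it, and the proteins came from different laboratories, so redox form and preparation cannot be told apart.

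The libraries held 40934540 to 80925478 counts. The 8 macrophage markers were detected in every condition. They summed to 22300 to 26600 CPM (counts scaled to the library total) in PBS, 27400 to 27700 in frHMGB1 and 19500 to 20900 in dsHMGB1. The sums were lower in LPS (15800 to 16500) and in LPS/IFNγ (14000 to 14400). In contrast, 6 of 8 T and NK cell markers, *Cd3e* among them, were at 0 in all libraries. The 6 fibroblast and stroma markers summed to 118 to 282 CPM, with none at 0 in all libraries. The 6 dendritic cell markers summed to 3.35 to 5.29 CPM in PBS, frHMGB1 and dsHMGB1, 7.89 to 8.73 CPM in LPS and 13.9 to 15 CPM in LPS/IFNγ. The part of such cells in the results was not tested. PBS replicate 3 stood apart from the other PBS libraries, with 1.49% of its counts on processed pseudogenes against 0.805% and 0.816%. Where a call turns on it, the value without it stands beside the result. All comparisons with PBS share the same 3 PBS libraries. In bulk RNA, fewer cells that express a gene and less of its RNA per cell cannot be told apart.

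ATP that leaves stressed or dying cells acts as a danger signal by opening P2X channels. P2X7 is the channel linked to potassium efflux and inflammasome activation in macrophages, and P2X4 responds to lower ATP. CD39 removes the signal by cutting ATP and ADP to AMP, from which CD73 makes adenosine, and CD38 consumes NAD and can feed the same route. Adenosine then acts on the receptors encoded by *Adora2a* and *Adora2b*, which couple to Gs, raise cAMP and restrain inflammatory output, and PDE4 enzymes end the cAMP signal.

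Of the 8 tested genes, 1 was called at an adjusted p under 0.05 in frHMGB1 against PBS, as higher. Of all tested genes 7.0% were called in that comparison, 1.31% higher and 5.69% lower. In dsHMGB1 against PBS 5 of the 8 were called, beside 47.4% of all genes: 4 were higher (23.3% of all genes) and 1 lower (24.2%). LPS against PBS had 7 called (62.9% of all genes), 4 of them higher (26.7%) and 3 lower (36.2%). LPS/IFNγ against PBS had 5 called (60.3%), 4 of them higher (29.0%) and 1 lower (31.2%). The 4 genes called higher were the same in all 3 of the last comparisons: *Pde4b*, *Adora2a*, *Adora2b* and *Cd38*. The genes called lower were *Entpd1* in dsHMGB1, *Entpd1*, *P2rx7* and *P2rx4* in LPS, and *P2rx4* in LPS/IFNγ. This split of lower genes turned on PBS replicate 3. Without it, *Entpd1*, *P2rx7* and *Pde4d* were called lower in dsHMGB1 and in LPS, beside 5034 and 6640 of all genes. In LPS/IFNγ *Entpd1*, *P2rx7* and *P2rx4* were then called lower, beside at most 5965 of all genes with a library left out.

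Between stimulations, 7 of the 8 were called in dsHMGB1 against frHMGB1 (50.8% of all genes), 4 of them higher (27.7%) and 3 lower (23.1%). Against LPS, dsHMGB1 had 3 called (26.4% of all genes), 0 of them higher (15.8%) and 3 lower (10.6%). Against LPS/IFNγ it had 6 called (33.2%), 2 of them higher (16.5%) and 4 lower (16.7%). In LPS/IFNγ against LPS 4 were called (25.7%), 3 of them higher (16.3%) and 1 lower (9.36%). The split depended on the scaling. When counts were scaled to library totals alone, the median edgeR log2 fold change of all genes against PBS moved by -0.35 (dsHMGB1), -0.62 (LPS) and -0.66 (LPS/IFNγ), and all 8 genes were then called in each of these comparisons, 4 higher and 4 lower. Over all genes that scaling gave 2615 higher and 6689 lower in dsHMGB1 against PBS, 2653 and 9458 for LPS, and 2976 and 8782 for LPS/IFNγ. Among the 8 genes it gave 1 higher and 2 lower in dsHMGB1 against LPS, beside 4661 higher and 885 lower of all genes. In dsHMGB1 against LPS/IFNγ it gave 2 higher and 1 lower, beside 4806 and 1663 of all genes. In LPS/IFNγ against LPS it gave 2 higher and 2 lower, beside 2486 and 1659 of all genes.

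**Figure D1:**
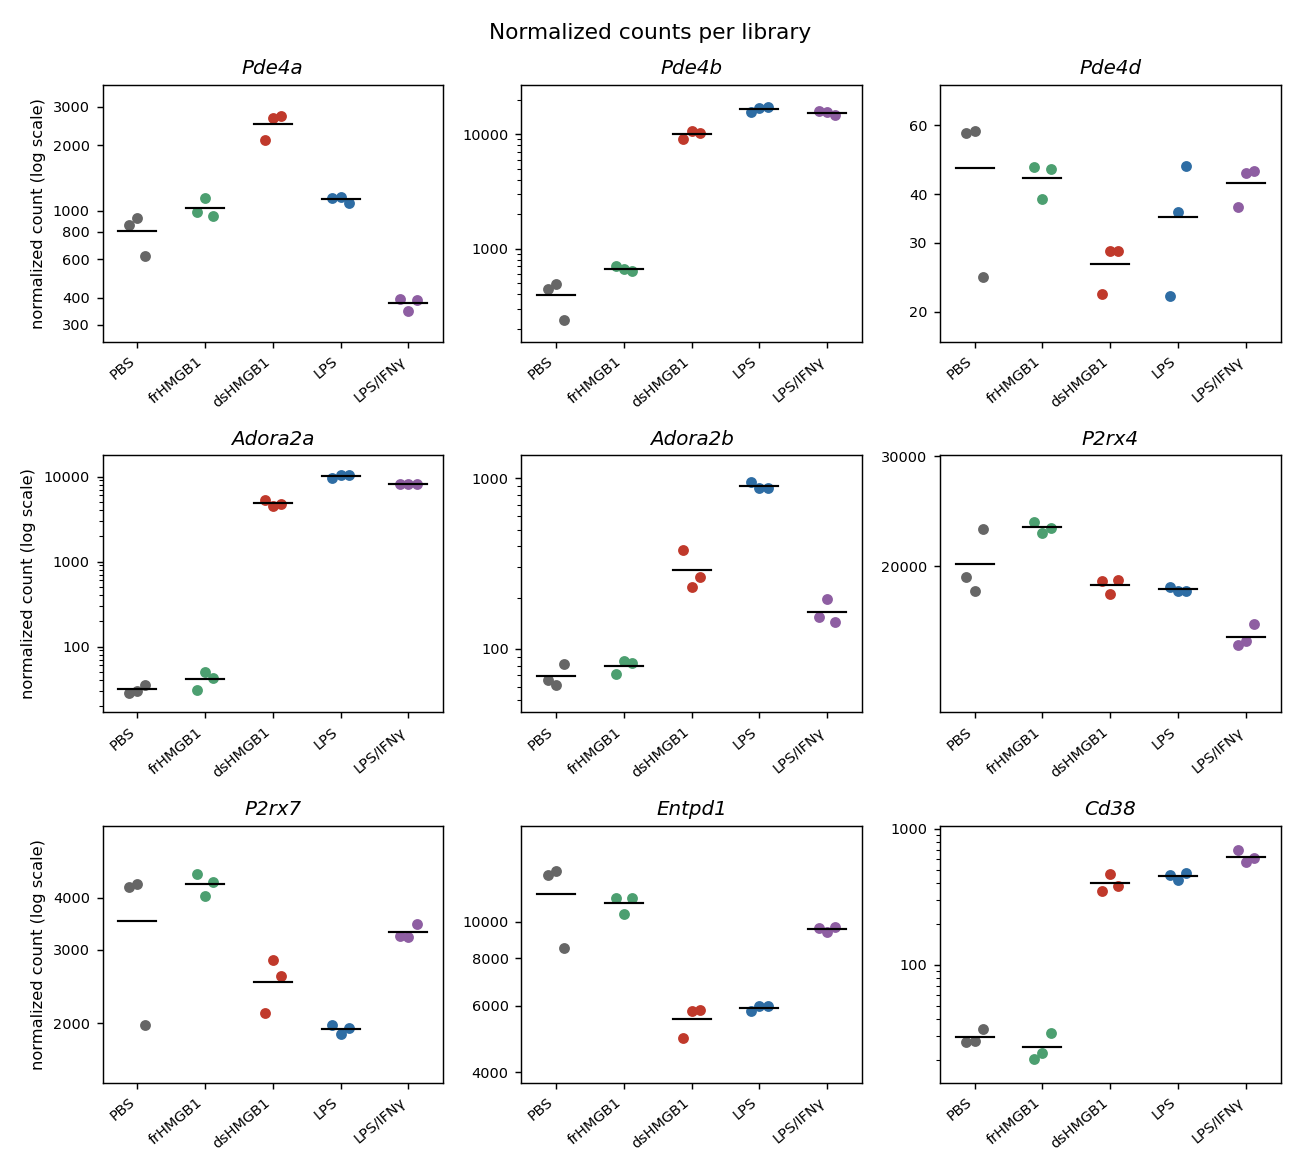
Normalized counts (log scale) of the 9 genes in each of the 15 libraries, by condition; each point is a library and each bar the mean of 3. *Pde4a* was highest in dsHMGB1 (mean 2498) and lowest in LPS/IFNγ (378), *Pde4b*, *Adora2a* and *Cd38* lay far above PBS in dsHMGB1, LPS and LPS/IFNγ, and PBS replicate 3 lay apart for *P2rx7* and *Entpd1*.

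PDE4 enzymes hydrolyse cAMP and not cGMP, and the genes differ in where and when they are used. *Pde4a* (ENSMUSG00000032177, GRCm38 chr9:21165714-21213248), *Pde4b* (ENSMUSG00000028525, chr4:102087543-102607259) and *Pde4d* (ENSMUSG00000021699, chr13:108449948-109953461) are all on the plus strand. Each has several start sites, and the counts are per gene, so they do not say which start was used. RefSeq promoters of the same build, 250 bases before to 50 after a start, were given for 8 of the 9 genes, 15 promoters in all. *Adora2a* had no promoter there, so it was not searched for any motif. None of the 15 held the full cAMP response element TGACGTCA, a site for CREB that 1.79% of 32851 promoters hold, and none held the interferon-stimulated response element (3.44%).

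The promoters shown are those of *Pde4a* and *Pde4b* that held a searched motif, because these genes had different orders over the conditions. Capitals mark the match, read 5′ to 3′ on the plus strand, and both strands were searched. In *Pde4a* promoter 2 (chr9:21183851-21184150) and *Pde4b* promoter 1 (chr4:102421305-102421604) the match is the short CRE motif TGACG on the opposite strand, which 20.8% of all promoters hold. In *Pde4b* promoter 2 (chr4:102569810-102570109) the matches are the STAT motif TTCNNNGAA (8.3% of promoters) and the NF-kB motif (4.51%).
Pde4a promoter 2: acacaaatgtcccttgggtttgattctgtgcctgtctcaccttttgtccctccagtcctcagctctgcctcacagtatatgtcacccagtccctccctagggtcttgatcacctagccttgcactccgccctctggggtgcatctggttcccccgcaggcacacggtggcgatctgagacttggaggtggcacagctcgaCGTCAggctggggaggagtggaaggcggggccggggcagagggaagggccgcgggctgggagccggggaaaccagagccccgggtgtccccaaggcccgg
Pde4b promoter 1: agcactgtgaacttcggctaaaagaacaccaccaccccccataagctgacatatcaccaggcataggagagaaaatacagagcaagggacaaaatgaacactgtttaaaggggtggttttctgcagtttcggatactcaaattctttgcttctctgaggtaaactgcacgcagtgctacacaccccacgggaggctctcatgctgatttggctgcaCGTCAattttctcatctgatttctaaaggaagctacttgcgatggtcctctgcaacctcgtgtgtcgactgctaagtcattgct
Pde4b promoter 2: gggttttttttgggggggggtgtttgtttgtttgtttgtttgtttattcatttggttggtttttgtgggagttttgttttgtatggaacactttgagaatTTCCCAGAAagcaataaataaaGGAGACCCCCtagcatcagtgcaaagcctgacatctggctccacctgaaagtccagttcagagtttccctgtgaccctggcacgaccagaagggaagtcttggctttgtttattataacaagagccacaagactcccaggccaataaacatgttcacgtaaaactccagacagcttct
The CRE motif lay 50 to 46 bases before the start in *Pde4a* promoter 2 and 34 to 30 bases before it in *Pde4b* promoter 1. The STAT motif lay 150 to 142 bases before the start of *Pde4b* promoter 2 and the NF-kB motif 128 to 119 bases before it. *Pde4a* and *Pde4b* thus shared the short CRE motif, which was also in *P2rx4* promoter 1 and in *Entpd1* promoters 1 and 2. The STAT and NF-kB matches were in *Pde4b* only among the 15 promoters searched. *P2rx7* promoter 1 held the remaining match, the AP-1 motif TGANTCA (7.81% of promoters). A match describes letters in this window and is not evidence of binding.

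*Pde4a* had its highest level in dsHMGB1 and its lowest in LPS/IFNγ. Its normalized counts were 865, 928 and 623 in PBS, 987, 1151 and 948 in frHMGB1, and 2110.3, 2654 and 2729.5 in dsHMGB1. They were 1148, 1159.7 and 1091 in LPS and 395, 348 and 390.3 in LPS/IFNγ. Every dsHMGB1 library lay above, and every LPS/IFNγ library below, all others. The libraries of frHMGB1 and LPS overlapped each other, and both lay above those of PBS.

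The mean was 3.09-fold higher in dsHMGB1 than in PBS (log2 fold change 1.63, SE 0.16), 2.21-fold higher than in LPS (1.14, SE 0.16) and 6.61-fold higher than in LPS/IFNγ (2.73, SE 0.16). LPS/IFNγ lay 2.14-fold below PBS (-1.10, SE 0.16) and 3-fold below LPS (-1.58, SE 0.16). With 1 library left out, the log2 difference of dsHMGB1 from PBS lay between 1.48 and 1.75, and LPS/IFNγ against PBS between -1.25 and -0.98. The log2 difference of LPS from PBS was 0.49 by size factors and turned to -0.23 when counts were scaled to library totals.

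*Pde4b*, the PDE4 gene best known for its induction by LPS in monocytes and macrophages, rose far more and had another order. In normalized counts it was at 444, 491 and 239 in PBS and 708, 672 and 633 in frHMGB1. They were 9044, 10766 and 10287 in dsHMGB1, 15573, 16897 and 17405 in LPS, and 15832, 15605 and 14666 in LPS/IFNγ. The LPS and LPS/IFNγ libraries overlapped each other and lay above those of dsHMGB1, which lay far above PBS and frHMGB1. The increase over PBS was 25.5-fold with dsHMGB1 (edgeR adjusted p = 2.31e-09), 42.2-fold with LPS (4.57e-10) and 39-fold with LPS/IFNγ (4.84e-10).

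*Pde4b* was the 1 gene of the 8 called in frHMGB1 against PBS, at 1.7-fold (log2 fold change 0.77, SE 0.20, adjusted p = 0.0392). That call was lost when any frHMGB1 library was left out (adjusted p between 0.0821 and 0.13). It held without PBS replicate 3, the lowest of the PBS libraries (log2 fold change 0.51, adjusted p = 0.000452). The level in dsHMGB1 was 1.66-fold below LPS (adjusted p = 0.0259) and 1.53-fold below LPS/IFNγ (0.0372). With 1 library left out, the adjusted p of these 2 differences ranged from 0.0437 to 0.0812 and from 0.0635 to 0.143, and with library totals it was 0.229 and 0.367. LPS/IFNγ and LPS differed by -0.11 on the log2 scale, with a 95% interval from -0.50 to 0.28.

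*Pde4d* was weakly expressed, at 17 to 92 reads per library. Its mean normalized count was 46.7 in PBS and 44.1 in frHMGB1. The mean of dsHMGB1 was 26.5, that of LPS 35 and that of LPS/IFNγ 42.7, and none of the 8 comparisons was called. PBS replicate 3, at 24.6, lay among the dsHMGB1 libraries (22.2, 28.6 and 28.6), while the other PBS libraries were at 57.5 and 58. In dsHMGB1 against PBS the log2 fold change was -0.85 (SE 0.34, adjusted p = 0.0552). That difference was called by the Wald test of DESeq2 (0.0271), with a filter of 1 CPM in 3 libraries (0.0343), with protein-coding genes only (0.0382) and with library totals (0.0118). Without PBS replicate 3, *Pde4d* was lower in dsHMGB1 (log2 fold change -1.15, adjusted p = 0.00187) and in LPS (-0.79, 0.0219) than in PBS. *Pde4c*, the remaining PDE4 gene, was nearly silent, with a mean of at most 0.702 normalized counts in any condition, and is named here after its values were seen.

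The balance between the PDE4 genes, measured as normalized count per kilobase of merged exons, differed between the conditions. *Pde4a* made up 70.3 to 76.7% of the summed level of the 3 genes in PBS and 64.5 to 69.2% in frHMGB1. Its share was 24.3 to 26.7% with dsHMGB1, 7.94 to 9.22% with LPS and 2.98 to 3.53% with LPS/IFNγ, with *Pde4b* making up nearly all of the rest. The shares did not overlap between any of the 5 conditions. They use the *Pde4a* values that placed it on the list and are given without a test. They also do not depend on the scaling, since both genes are divided by the same factor in a library.

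**Figure D2:**
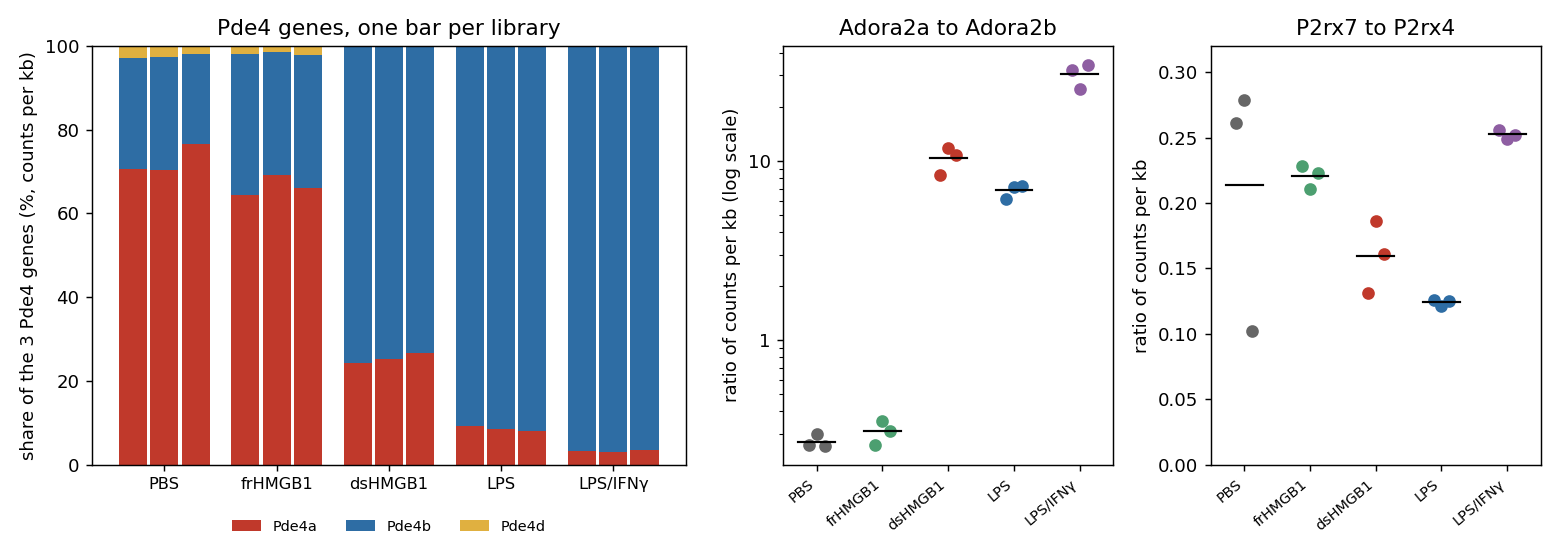
Left, share of *Pde4a*, *Pde4b* and *Pde4d* in the summed normalized count per kilobase of the 3 genes, 1 bar per library; middle and right, ratio of *Adora2a* to *Adora2b* (log scale) and of *P2rx7* to *P2rx4*, 1 point per library with the mean of 3 as a bar. The *Pde4a* share was 70.3 to 76.7% in PBS and 2.98 to 3.53% in LPS/IFNγ, the adenosine receptor ratio was 0.258 to 0.356 in PBS and frHMGB1 and 25 to 34.2 in LPS/IFNγ, and 1 PBS library lay apart in the P2X ratio at 0.102.

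The adenosine receptor gene *Adora2a* (ENSMUSG00000020178, chr10:75316877-75334784) had the largest fold changes over PBS of the 9 genes in dsHMGB1, LPS and LPS/IFNγ. The libraries held normalized counts of 28.4, 30.3 and 35.1 in PBS and 31, 50.1 and 43.1 in frHMGB1. They were 5266, 4535 and 4734 in dsHMGB1, 9662, 10402 and 10559 in LPS, and 8136, 8131 and 8199.9 in LPS/IFNγ. The PBS and frHMGB1 libraries overlapped, and the other conditions were separate from each other. The rise over PBS was 158-fold in dsHMGB1 (log2 fold change 7.30, SE 0.16, adjusted p = 1.05e-12), 332-fold in LPS (8.38, SE 0.16, 2.8e-13) and 266-fold in LPS/IFNγ (8.05, SE 0.16, 3.08e-13).

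*Adora2a* stayed 2.11-fold lower in dsHMGB1 than in LPS (adjusted p = 3.95e-05) and 1.68-fold lower than in LPS/IFNγ (0.000334). LPS/IFNγ against LPS was not called (log2 fold change -0.32, 95% interval -0.50 to -0.15, adjusted p = 0.0999). The Wald test of DESeq2 did call it, at an adjusted p of 0.00154. In frHMGB1 against PBS the log2 fold change was 0.43 (95% interval 0.03 to 0.84, adjusted p = 0.155), and 0.61 without frHMGB1 replicate 1 (0.049).

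*Adora2b* (ENSMUSG00000018500, chr11:62248984-62266453), whose receptor needs more adenosine for activation, had a different order. Its normalized counts were 65.9, 61.2 and 82 in PBS, 71.6, 84.8 and 83.1 in frHMGB1, and 379.9, 231 and 263 in dsHMGB1. They were 946, 874 and 879 in LPS and only 153, 196 and 144 in LPS/IFNγ. From low to high the order was PBS, frHMGB1, LPS/IFNγ, dsHMGB1 and LPS, and only PBS and frHMGB1 overlapped. The rise over PBS was 4.22-fold in dsHMGB1 (adjusted p = 1.19e-06), 13.1-fold in LPS (3.4e-09) and 2.38-fold in LPS/IFNγ (9.79e-05).

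*Adora2b* was 5.48-fold lower in LPS/IFNγ than in LPS (log2 fold change -2.46, SE 0.20, adjusted p = 1.15e-06). In dsHMGB1 it was 3.09-fold lower than in LPS (adjusted p = 3.86e-05) and 1.77-fold higher than in LPS/IFNγ (0.00319). The last difference kept its call with any library left out (adjusted p between 0.00194 and 0.0178). *Adora2b* and *P2rx4* were the tested genes called higher in dsHMGB1 than in LPS/IFNγ. *Pde4a* was selected for its peak in dsHMGB1, so its higher level there adds nothing to these calls. *Pde4b*, *Adora2a*, *Entpd1* and *Cd38* were called lower, and the call of *Pde4b* was lost with any library left out.

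Per kilobase of merged exons, *Adora2a* was below *Adora2b* in every PBS and frHMGB1 library, at a ratio of 0.258 to 0.298 and 0.261 to 0.356. It was above *Adora2b* in every other library, at 8.35 to 11.8 in dsHMGB1, 6.15 to 7.24 in LPS and 25 to 34.2 in LPS/IFNγ. The ratio in dsHMGB1 thus lay between those of LPS and LPS/IFNγ without overlap. The other adenosine receptor genes are named after their values were seen. *Adora1* had 0 counts in all libraries, and the *Adora3* condition means were 12.2 to 72.3 normalized counts. The PBS libraries held 28.4 to 35.1 for *Adora2a* and 61.2 to 82 for *Adora2b*, likewise without correction for length.

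The ATP-gated channel genes *P2rx7* (ENSMUSG00000029468, chr5:122643911-122691432) and *P2rx4* (ENSMUSG00000029470, chr5:122707544-122729738) lie head to tail on the plus strand with 16111 bases between them and 0 other protein-coding genes there. *P2rx4* was abundant in every condition, with means of 2195 to 3282 normalized counts per kilobase, and moved little. Its normalized counts were 18264 to 22922 in PBS and 22608 to 23515 in frHMGB1. They were 18033 to 18999 with dsHMGB1, 18263 to 18509 with LPS and 14924 to 16133 with LPS/IFNγ. The LPS/IFNγ libraries lay below all others, and those of PBS, dsHMGB1 and LPS overlapped.

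*P2rx4* fell by 0.38 on the log2 scale in LPS/IFNγ against PBS (SE 0.08, adjusted p = 0.00049) and by 0.31 in dsHMGB1 against frHMGB1 (SE 0.08, 0.00288). It was 1.21-fold higher in dsHMGB1 than in LPS/IFNγ (adjusted p = 0.0104). In LPS against PBS it was called lower, at -0.13 (-0.19 in the edgeR fit, edgeR adjusted p = 0.0457). That call was lost in 5 of 6 fits with a library left out and with a replicate block (adjusted p = 0.0593). It was also lost with the Wald test of DESeq2 (0.155). The edgeR test lost it with RLE factors (0.201), with no filter (0.515) and with only the groups compared (0.689). In dsHMGB1 against PBS the log2 fold change was -0.11, with a 95% interval from -0.28 to 0.06. In frHMGB1 against PBS it was 0.20 (95% interval 0.03 to 0.36, adjusted p = 0.14), and 0.29 without PBS replicate 3 (0.000753). LPS/IFNγ against LPS, at -0.25 (adjusted p = 0.0594), was called by the Wald test of DESeq2 (0.0124) and without LPS/IFNγ replicate 3 (0.0379).

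*P2rx7* was lowest in LPS. Its normalized counts were 4257, 4329 and 1979.8 in PBS, 4559, 4049 and 4369 in frHMGB1, and 2112, 2844 and 2598 in dsHMGB1. They were 1977, 1882 and 1944 in LPS and 3245, 3219 and 3457 in LPS/IFNγ. PBS replicate 3 was at the level of LPS, less than the lowest frHMGB1 library by a wide margin, and the other PBS libraries were within the range of frHMGB1. The conditions other than PBS did not overlap each other.

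With all libraries, *P2rx7* fell by 0.87 on the log2 scale in LPS against PBS (SE 0.24, adjusted p = 0.00383), while dsHMGB1 (-0.48, SE 0.24, adjusted p = 0.0944) and LPS/IFNγ (-0.09, SE 0.24, 0.644) were not called. Without PBS replicate 3 the log2 fold change was -1.21 in LPS (adjusted p = 1.54e-09), -0.80 in dsHMGB1 (5.03e-07) and -0.45 in LPS/IFNγ (0.000291). Without either of the other PBS libraries, LPS/IFNγ against PBS was 0.04 or 0.06. In dsHMGB1 against frHMGB1, a comparison free of PBS, *P2rx7* fell by 0.78 (SE 0.24, adjusted p = 0.0124). That call was lost without dsHMGB1 replicate 1 (adjusted p = 0.0557).

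*P2rx7* was 1.71-fold higher in LPS/IFNγ than in LPS (log2 fold change 0.77, SE 0.24, adjusted p = 0.0234). The ranges of the libraries were well apart, but the adjusted p was 0.0685 to 0.0945 with any 1 of the 6 libraries left out. The ratio of *P2rx7* to *P2rx4* per kilobase was 0.249 to 0.256 in LPS/IFNγ, 0.121 to 0.126 in LPS and 0.131 to 0.186 in dsHMGB1. It was 0.211 to 0.228 in frHMGB1, and 0.261, 0.279 and 0.102 in PBS. The neighbouring channel genes therefore had different orders: *P2rx4* was lowest in LPS/IFNγ and *P2rx7* in LPS.

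*Entpd1* (ENSMUSG00000048120, chr19:40612366-40741602) encodes CD39, which degrades ATP and ADP at the cell surface. Its normalized counts were 13299.6, 13635 and 8500.4 in PBS, 11553, 10499 and 11559 in frHMGB1, and 4933, 5811 and 5857 in dsHMGB1. They were 5793, 5977 and 5987 in LPS and 9624, 9392 and 9703 in LPS/IFNγ. The dsHMGB1 and LPS libraries overlapped and lay below all others, and PBS replicate 3 lay below LPS/IFNγ while the other PBS libraries lay above it.

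*Entpd1* fell 2.14-fold in dsHMGB1 (log2 fold change -1.09, SE 0.16, adjusted p = 7.85e-05) and 2-fold in LPS against PBS (-1.0, SE 0.16, 6.95e-05). In LPS/IFNγ the log2 fold change was -0.30 (95% interval -0.61 to 0.01, adjusted p = 0.084), and -0.56 without PBS replicate 3 (7.77e-07). In frHMGB1 it was -0.08 (95% interval -0.39 to 0.23, adjusted p = 0.873), and -0.27 without PBS replicate 3 (0.0108). *Entpd1* was 1.62-fold higher in LPS/IFNγ than in LPS (adjusted p = 0.00442) and 1.73-fold lower in dsHMGB1 than in LPS/IFNγ (0.00216). These 2 calls held with any library left out, at adjusted p of up to 0.0288 and 0.0158, and the second was lost with library totals (0.076). dsHMGB1 differed from LPS by -0.10 (95% interval -0.41 to 0.21), a sign that turned to 0.24 with library totals.

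CD73, the enzyme that follows CD39, is encoded by *Nt5e*, which was too low to be tested: its means were 2.74 to 6.05 normalized counts in the 5 conditions. This gene is named after its values were seen.

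*Cd38* (ENSMUSG00000029084, chr5:43868553-43912375) encodes an NAD glycohydrolase that is also a marker of inflammatory mouse macrophages. The libraries held normalized counts of 27.2, 27.7 and 34 in PBS and 20.3, 22.5 and 31.3 in frHMGB1. They were 347, 469.5 and 379 in dsHMGB1, 455, 424 and 478 in LPS, and 705, 567 and 607 in LPS/IFNγ. PBS overlapped frHMGB1 and dsHMGB1 overlapped LPS, and LPS/IFNγ was above all others.

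*Cd38* rose 13.7-fold over PBS in dsHMGB1 (log2 fold change 3.78, SE 0.20, adjusted p = 1.49e-09), 15.6-fold in LPS (3.96, SE 0.21, 6.46e-10) and 21.5-fold in LPS/IFNγ (4.43, SE 0.20, 2e-10). It was 1.57-fold lower in dsHMGB1 than in LPS/IFNγ (adjusted p = 0.00671), a call lost with library totals (0.125). LPS/IFNγ lay 1.38-fold above LPS (adjusted p = 0.031), and that call was lost with any of the 6 libraries left out (0.066 to 0.195). dsHMGB1 differed from LPS by -0.18 (95% interval -0.50 to 0.13), and by 0.15 with library totals. *Cd38* is also used by B and plasma cells, and their 8 markers summed to 38.3 to 52.2 CPM in PBS and frHMGB1 and to 5.95 to 13.3 CPM in the conditions where *Cd38* was high; *Mzb1*, a plasma cell marker, was at 0, and the part of such cells in the result was not tested.

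*Bst1* (CD157), the paralog of *Cd38*, ends 24566 bases before it on the same strand, with 0 protein-coding genes between. It rose from a mean of 67.3 normalized counts in PBS to 132 in dsHMGB1 (adjusted p = 0.000816), 166 in LPS (7.09e-05) and 276 in LPS/IFNγ (6.88e-07). The means of the neighbours thus had the same order over PBS and these 3 conditions. For *Cd38*, however, dsHMGB1 and LPS overlapped and were not called apart (adjusted p = 0.616). *Bst1* too was lower in dsHMGB1 than in LPS/IFNγ (log2 fold change -1.07, adjusted p = 0.000589). *Bst1* shares 98 exon bases with *Fbxl5* on the opposite strand, and whether counting used strand is not given in the sources used here.

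**Figure D3:**
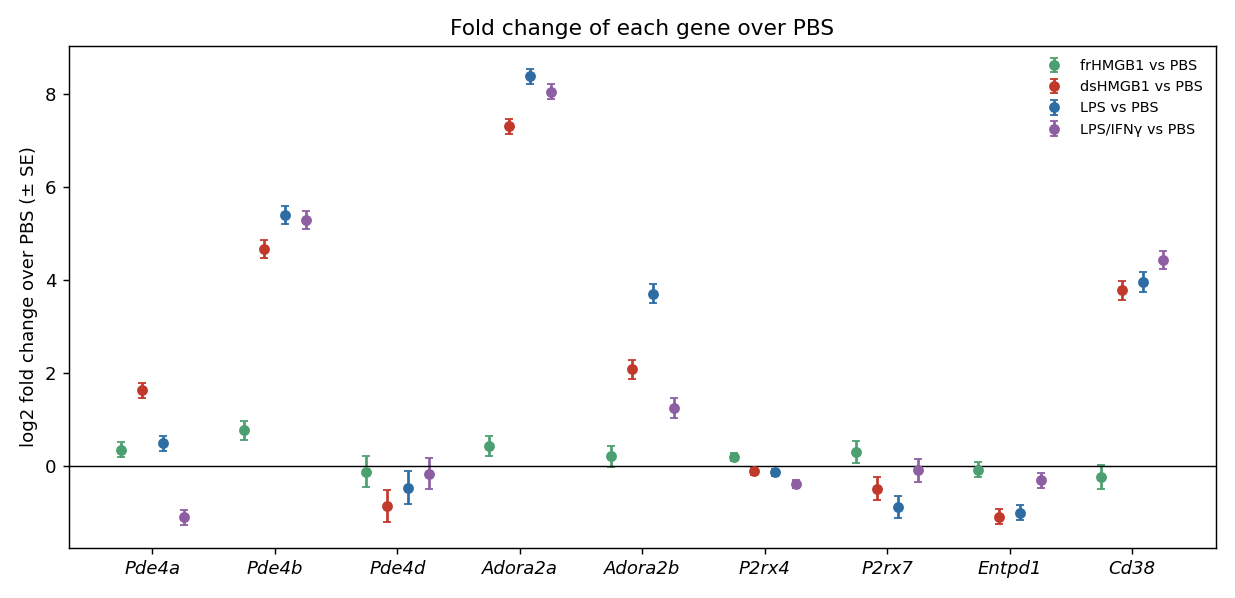
Log2 fold change over PBS (DESeq2, unshrunken; bars are the SE) of the 9 genes in each stimulation, all against the same 3 PBS libraries. *Adora2a* reached 7.30 to 8.38 and *Pde4b* 4.67 to 5.40 in dsHMGB1, LPS and LPS/IFNγ, *Pde4a* is the gene with opposite signs in dsHMGB1 (1.63) and LPS/IFNγ (-1.10), and the frHMGB1 values lay between -0.24 and 0.77.

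The rest of the pathway was followed in 8 lists of 103 genes without the 9, of which 82 passed the filter. In frHMGB1 against PBS 2 of the 82 were called (2.44%, beside 7.0% of all genes), *Ahcy* (log2 fold change 0.65) and *Ptger4*. Neither was called without frHMGB1 replicate 1 or 3. Against PBS, dsHMGB1 had 22 higher and 29 lower, LPS 26 and 37, and LPS/IFNγ 31 and 33. The called share of the 82 was 62.2%, 76.8% and 78%, beside 47.4%, 62.9% and 60.3% of all genes. Of all genes, 23.3%, 26.7% and 29.0% were higher and 24.2%, 36.2% and 31.2% lower. With library totals the splits of the 82 became 15 and 38, 19 and 44, and 22 and 43. Between stimulations, 51 of the 82 were called in dsHMGB1 against frHMGB1 (62.2%, beside 50.8% of all genes). Against LPS 31 were called (37.8%, beside 26.4%) and against LPS/IFNγ 46 (56.1%, beside 33.2%). In LPS/IFNγ against LPS 33 were called (40.2%, beside 25.7%). The median log2 fold change of the 82 genes against PBS was -0.04 for dsHMGB1, -0.07 for LPS and -0.14 for LPS/IFNγ, beside -0.10, -0.21 and -0.12 for all genes. The lists held genes that moved both ways, and the genes named below are those with the largest called changes in each. The shares of all genes given here apply to the counts of each list below, and no list was tested as a set.

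Of 10 other phosphodiesterase genes tested, 2 were called in dsHMGB1 against PBS, 1 higher and 1 lower, and 5 each in LPS and LPS/IFNγ, 3 higher and 2 lower. *Pde1c*, a calcium and calmodulin-dependent enzyme, fell from 666 normalized counts in PBS to 153 in dsHMGB1 (adjusted p = 6.51e-08), 172 with LPS and 230.2 with LPS/IFNγ. *Pde7a*, which like PDE4 is specific for cAMP, rose in LPS/IFNγ alone of the 4 comparisons with PBS, from 546 to 1149.5 (7.24e-06), and was lower in dsHMGB1 than in LPS/IFNγ (log2 fold change -1.25, adjusted p = 5.08e-06). *Pde8b*, also specific for cAMP, fell from 173 to 66 in LPS/IFNγ (0.000811) and to 96.8 in LPS (0.0155), and its counts may include those of an antisense gene that shares 447 exon bases.

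Among 9 other nucleotide and adenosine receptor genes tested, dsHMGB1 and LPS each had 3 higher and 4 lower than PBS, and LPS/IFNγ had 6 and 2. *P2ry2*, the ATP and UTP receptor, separated dsHMGB1 from LPS: its mean was 1131 in PBS, 1609.7 with dsHMGB1, 6013 with LPS and 10265 with LPS/IFNγ. The log2 fold change of dsHMGB1 against LPS was -1.90 (SE 0.10, adjusted p = 2.63e-07). *P2ry14*, the receptor of UDP-glucose, rose from 858 to 3729.6 in dsHMGB1 (3.47e-07) and to 6579 and 7015 in LPS and LPS/IFNγ. *P2ry13*, an ADP receptor, rose from 50.8 to 679 in dsHMGB1 (1.24e-05), and its difference between dsHMGB1 and LPS was 0.13 (SE 0.40).

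Of 9 other ectonucleotidase and NAD glycohydrolase genes, dsHMGB1 had 3 higher and 4 lower than PBS, and both LPS and LPS/IFNγ had 3 and 5. *Enpp4*, of the ectonucleotide pyrophosphatase family, rose from 126 to 3307 normalized counts in dsHMGB1 (log2 fold change 4.69, adjusted p = 5.78e-08), to 4165 in LPS and to 1426 in LPS/IFNγ. Like *Adora2b* and *P2rx4*, it was higher in dsHMGB1 than in LPS/IFNγ (log2 fold change 1.21, adjusted p = 0.00405). *Entpd6*, a nucleoside diphosphatase, fell from 534 to 295 in dsHMGB1 (0.000522), 185 with LPS and 139 with LPS/IFNγ.

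Among 8 genes of adenosine uptake and conversion, 2 rose and 5 fell in dsHMGB1, 2 rose and 4 fell in LPS, and 3 rose and 3 fell in LPS/IFNγ. *Slc28a2*, a concentrative nucleoside transporter, rose from 367 to 2856 in dsHMGB1 (adjusted p = 2.04e-07), 11122 in LPS (1.7e-09) and 2651 in LPS/IFNγ. *Pnp*, the purine nucleoside phosphorylase that acts after deamination of adenosine, rose from 2239 to 18883 in dsHMGB1 (1.84e-07), 29795 with LPS and 33654 with LPS/IFNγ. Both have a close copy in the mouse genome, so their counts depend on how shared reads were assigned. *Slc29a3*, a lysosomal nucleoside transporter, fell from 7688 to 3960.0, 3027 and 2773 (adjusted p of 0.00782, 0.000424 and 0.000256).

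Of 7 genes for ATP release and its channels, 2 rose and 2 fell in dsHMGB1, 3 rose and 3 fell in LPS, and 4 rose and 3 fell in LPS/IFNγ. *Gja1* (connexin 43) had a mean of 236 in PBS, 379 in dsHMGB1 (adjusted p = 0.217), 1288 in LPS (0.000292) and 6876 in LPS/IFNγ (8.91e-07). Its log2 fold change of dsHMGB1 against LPS/IFNγ was -4.18 (SE 0.41, adjusted p = 9.04e-06). *Lrrc8c* and *Lrrc8b*, subunits of the volume-regulated anion channel, rose in all 3: *Lrrc8c* from 714 to 6634, 6662 and 3317, and *Lrrc8b* from 708 to 1835, 1635 and 1603.

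On the side of cAMP synthesis, 14 genes were tested, of which 4 rose and 3 fell in dsHMGB1, while 3 rose and 5 fell with LPS, alone or with IFNγ. The prostaglandin E2 receptors that couple to Gs moved in opposite directions. *Ptger4* (EP4) rose from 1084 to 1375 in frHMGB1 (adjusted p = 0.032), 2020.2 in dsHMGB1 (3.48e-06), 3362 with LPS and 11768 with LPS/IFNγ (6.15e-12). Its call in frHMGB1 was lost without frHMGB1 replicate 1 or 3, with no filter, with protein-coding genes only and with only both groups compared. *Ptger2* (EP2) fell from 335 to 163 with dsHMGB1 (0.000326), 239 with LPS (0.0168) and 95.4 with LPS/IFNγ (1.49e-06). *Gnai3*, an inhibitory G protein subunit, rose from 4678 to 9194, 12219.9 and 15505.

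Of 15 genes for cAMP effectors, 4 rose and 5 fell in dsHMGB1, 5 rose and 9 fell in LPS, and 5 rose and 8 fell in LPS/IFNγ. *Crem*, which encodes activators and repressors at CRE sites, rose from 426 to 797 in LPS (adjusted p = 7.23e-05) and to 8633 in LPS/IFNγ (2.07e-11). In dsHMGB1 it was at 515 (0.0922), with a log2 fold change of -4.07 against LPS/IFNγ (3.62e-10). *Rapgef3*, the cAMP sensor EPAC1, fell from 639 to 193 in dsHMGB1 (2.91e-06), 77.1 with LPS and 47.1 with LPS/IFNγ. *Pkib*, an inhibitor of protein kinase A, fell from 1682 to 441, 342 and 852.

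Of 10 genes known as CREB targets, 3 rose and 5 fell in dsHMGB1, while 4 rose and 5 fell with LPS, alone or with IFNγ. *Nr4a3*, an orphan nuclear receptor, rose from 29.2 to 587 in dsHMGB1 (adjusted p = 2.85e-08), 4630.0 with LPS and 7304 with LPS/IFNγ. *Per1*, a clock gene, fell from 1164 to 299.6, 218 and 361, and *Sik1*, a kinase that restrains CREB coactivators, fell from 1243 to 488, 268 and 238. Known targets of one transcription factor thus moved both ways in the same libraries.

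**Figure D4:**
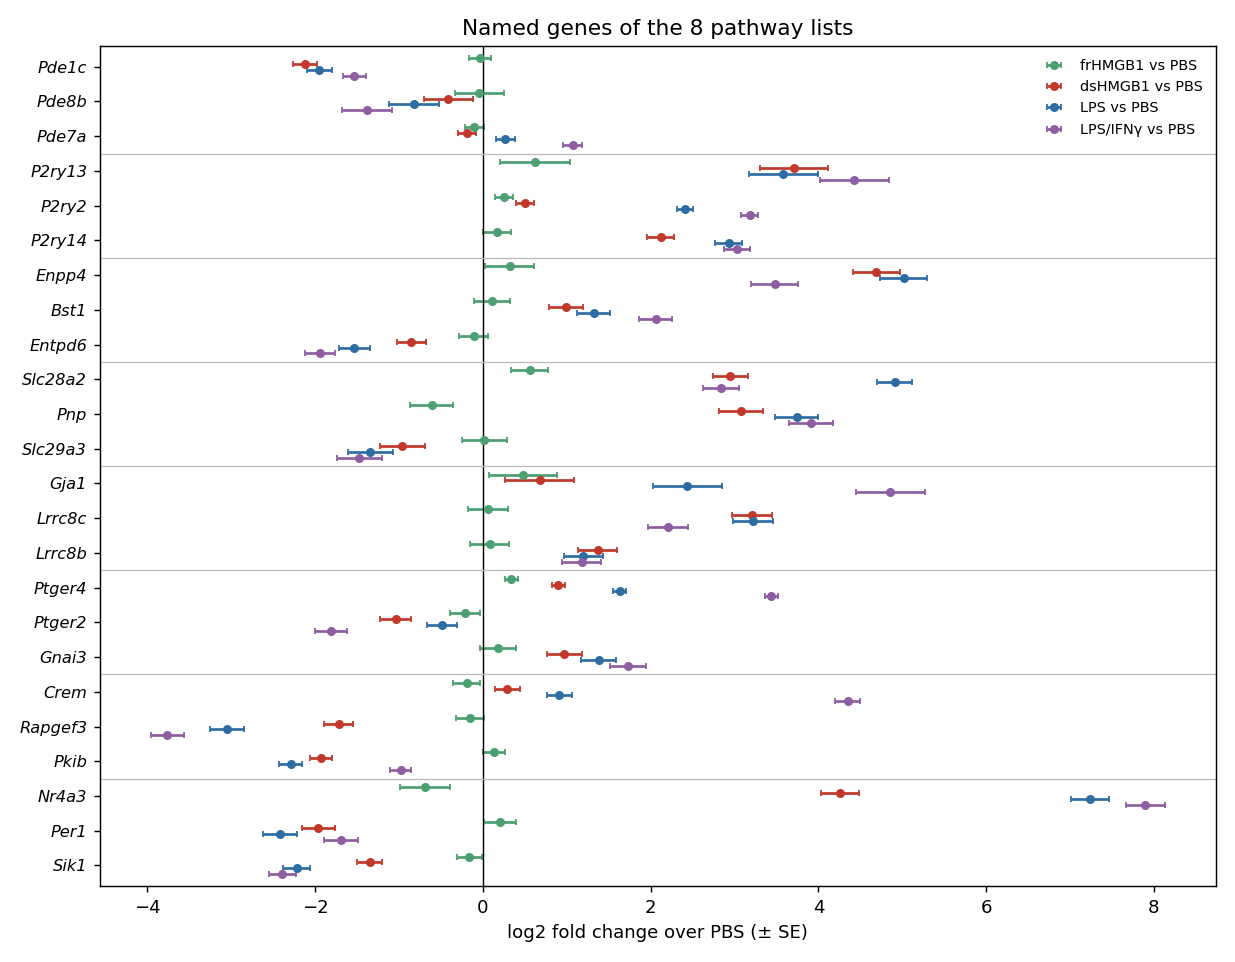
Log2 fold change over PBS (± SE) of the 24 genes named from the 8 pathway lists, in the order of the text, with lines between lists. *Nr4a3* had the largest value (7.90 in LPS/IFNγ), *Gja1*, *Ptger4* and *Crem* were highest in LPS/IFNγ, and the frHMGB1 values lay between -0.69 and 0.62.

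For each of the 9 genes, the 3 genes with the nearest pattern were found as those with the smallest root mean square difference of centred log2 condition means, over 5 conditions and 10101 protein-coding candidates (10102 for *Pde4d*). *Pde4a* was nearest to *Slc16a10* (0.165), *St18* (0.202) and *Nr1h3* (0.204), beside a median of 0.98 over all candidates. *Slc16a10* encodes an aromatic amino acid transporter and *Nr1h3* the oxysterol receptor LXRα. Their means were highest in dsHMGB1 and lowest in LPS/IFNγ too, at 23863 and 3808 for *Slc16a10* and 7808 and 1248 for *Nr1h3*. This follows from how they were sought.

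*Adora2a* was nearest to *Ifit2* (0.148), *Olfr56* (0.212) and *Isg15* (0.291), and *Cd38* to *Eif2ak2* (0.109), *AW011738* (0.156) and *Zup1* (0.158). *Ifit2*, *Isg15* and *Eif2ak2* are interferon-stimulated genes. *Olfr56* shares 111 exon bases with *Ifi47*, which had far more counts, so its value is uncertain. *Pde4b* was nearest to *Nod1* (0.125), *Oas2* (0.13) and *Lcp2* (0.151), and *Adora2b* to *Ccne1* (0.182), *Socs2* (0.226) and *Klf4* (0.297), the last 3 of which were highest in LPS.

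For the other 4 genes the nearest were *Tinf2*, *Plpbp* and *Rab19* to *Pde4d*, *Lztr1*, *Btbd3* and *Xrcc3* to *P2rx4*, *Klf10*, *Ubr7* and *Il6st* to *P2rx7*, and *Dhx34*, *Sgsm2* and *Ttc7* to *Entpd1*, all at 0.0233 to 0.0786. *Tinf2* shares 1540 exon bases with *Gmpr2* on the opposite strand (7994 and 8125 counts over all libraries). The strand setting of the counting is not given, so the value of *Tinf2* is uncertain. These distances describe 5 condition means and carry no test.

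**Figure D5:**
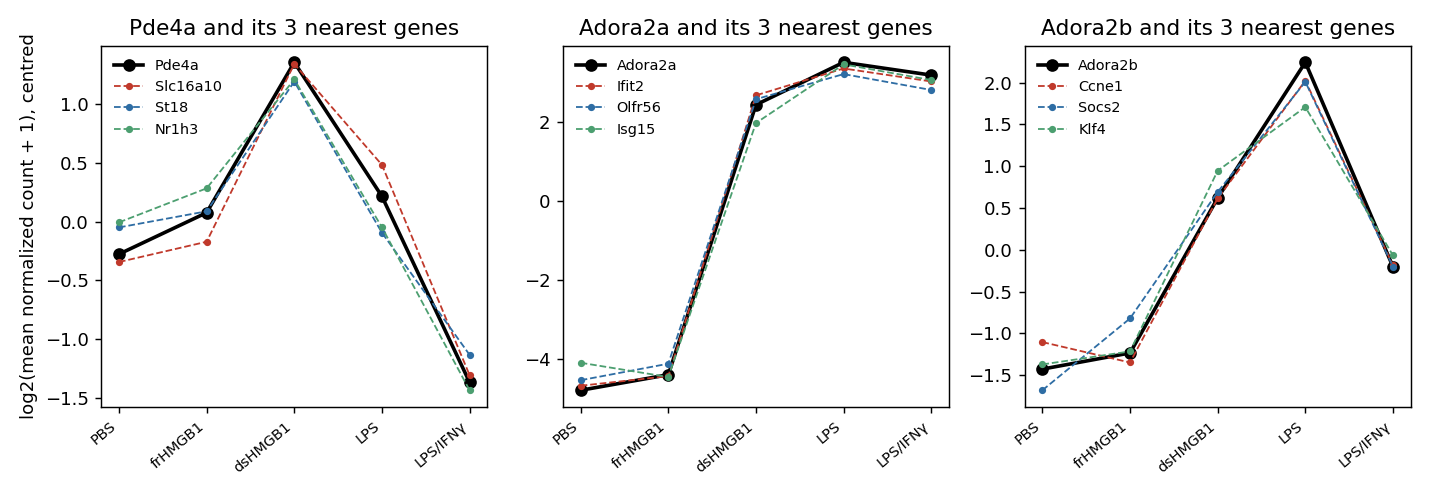
Centred log2(mean normalized count + 1) in the 5 conditions for *Pde4a*, *Adora2a* and *Adora2b* (solid) and the 3 genes nearest to each (dashed). The *Pde4a* panel peaks in dsHMGB1, the *Adora2a* panel stays high in dsHMGB1, LPS and LPS/IFNγ, and the *Adora2b* panel peaks in LPS.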

How the data were processed

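Stranded mRNA libraries of pooled BMDMs were sequenced in paired-end mode. Per the labels, the authors used STAR and the GRCm38 genome, and they deposited raw counts per gene. How reads were assigned to genes, by which program, annotation and strand setting, is not given in the sources used here. The table has 15 columns and 0 without a sample, and of 51763 identifiers 51661 were named from GENCODE M21 and 102 had no match there. No replicate pair was near enough to be 1 library deposited more than once. Genes were kept by filterByExpr (minimum count 10, minimum total 15). Calls are Benjamini-Hochberg adjusted p under 0.05 from the quasi-likelihood test of edgeR 4.0.16 (TMM, 15 libraries in one fit, no covariates). Normalized counts, log2 fold changes (unshrunken), SE and 95% intervals are from DESeq2 1.42.0 in R 4.3.3. Levels are compared between genes per kilobase of merged exons. The labels give no batch.

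The 9 genes and all lists were chosen with earlier results of these data known, and motifs after the patterns were seen. Named pathway genes are up to 3 per list with the largest called change against PBS, a mean normalized count of 100 or more, and libraries that did not overlap with PBS. The 3 genes nearest to each of the 9 were sought among protein-coding genes on the log2(normalized count + 1) scale. Exceptions are marked. The scripts were tested on simulated data. Alternatives were the Wald test of DESeq2, RLE factors, other filters, a test of a 2-fold change, protein-coding genes only, the compared groups alone, a replicate block, single libraries left out and library totals.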

Additional observations from a re-analysis of the deposited data

How the results depend on the processing

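Depth limited *Pde4d* (17 to 92 reads), and PBS replicate 3 and the choice of scaling limited the comparisons with PBS. Scaling to library totals was added after the data were seen. For frHMGB1 against PBS, the call of *Pde4b* (0 of 8 genes called) was lost with no filter, with 1 CPM in 3 libraries, in a test of a fold change above 2, with protein-coding genes only, with library totals and with only both groups compared, and the count ranged from 0 to 3 with a library left out. The 2 pathway genes became 8 with DESeq2, 0 with no filter, the fold test, protein-coding genes or both groups alone, 1 with library totals, and 0 to 10 with a library left out. Over all genes, 1185 calls became 716 with the CPM filter, 634 in the fold test, 70 with protein-coding genes, 189 with both groups alone and 3035 without PBS replicate 3.

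The test of a fold change above 2 left 4 of the 8 genes in LPS against PBS, 3 in LPS/IFNγ against PBS, 4 in dsHMGB1 against frHMGB1, 1 in dsHMGB1 against LPS, 0 in dsHMGB1 against LPS/IFNγ and 1 in LPS/IFNγ against LPS. It left 19, 35, 36, 17, 7, 14 and 10 pathway genes in dsHMGB1, LPS and LPS/IFNγ against PBS, dsHMGB1 against frHMGB1, LPS and LPS/IFNγ, and LPS/IFNγ against LPS, and in the same order 2657, 5229, 4967, 3396, 931, 1142 and 1093 of all genes. Library totals gave 8 of the 8 genes in dsHMGB1 and in LPS/IFNγ against PBS, and 3 in dsHMGB1 against LPS/IFNγ. With only the groups compared, dsHMGB1 against PBS had 31 pathway genes (4747 of all genes), dsHMGB1 against LPS 6985 and against LPS/IFNγ 8580 of all genes, and LPS/IFNγ against LPS 7 of the 8 genes, 53 pathway genes and 8999 of all genes. With a library left out, LPS/IFNγ against LPS had 2 to 3 of the 8 genes and 21 to 25 pathway genes. Of all genes, 3349 to 3454 were called in these fits, against 4348 with all libraries.

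Reversed signs, none of a called value, were *Pde4d* (0.08 and 0.09) and *Entpd1* (0.04 and 0.06) in frHMGB1 and *P2rx7* (0.04 and 0.06) in LPS/IFNγ against PBS without PBS replicate 1 or 2 (lowest with a library left out -0.4, -0.27 and -0.45), *Pde4d* in LPS/IFNγ against PBS without PBS replicate 2 (0, lowest -0.51), and in dsHMGB1 against LPS *Entpd1* without dsHMGB1 replicate 1 (0, lowest with a library left out -0.08) and with library totals (0.24) and *Cd38* with library totals (0.15). The log2 difference between the highest and lowest condition in CPM became 3.05 for *Pde4a*, 4.67 for *Pde4b*, 7.67 for *Adora2a*, 3.01 for *Adora2b*, 1.31 for *P2rx4*, 1.9 for *P2rx7* and 3.94 for *Cd38*, and 0.5 for *P2rx4* with size factors of protein-coding genes. The cause was not tested.

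Of 30 pairs of libraries with the same replicate number, 1 had a correlation of deviations over 0.1 (range -0.34 to 0.336). Both extremes were between PBS and dsHMGB1 libraries. Pairs with different numbers were not compared, so the check cannot tell whether the numbers pair the libraries. With a replicate block, pathway genes called in frHMGB1 against PBS went from 2 to 1, *P2rx4* in LPS against PBS lost its call (log2 fold change -0.19), and the other counts of calls stayed within 1.5 times.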
